A study of Homo sapiens with 12 samples.

Results

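The regions described here are enriched segments of RNA, called peaks, that lie on annotated pseudogenes and on no other kind of gene. The peaks come from acRIP-seq, in which fragmented RNA is pulled down with an antibody to N4-acetylcytidine (ac4C) and sequenced. A peak was taken when it overlapped, by 1 bp or more on either strand, the span of at least 1 hg38 RefSeq gene of biotype pseudogene or transcribed pseudogene, and no gene of any other biotype. Of 62412 peaks in both lists, 3475 met this rule. They comprised 1635 of 28047 peaks of the knockdown list (5.83%) and 1840 of 34365 peaks of the control list (5.354%).

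The cells were RBE, a line of human intrahepatic cholangiocarcinoma, a cancer of the bile ducts inside the liver. One arm carried a lentiviral short hairpin against NAT10 (sh-NAT10), was selected with puromycin and was grown out from resistant colonies, so it is a selected, stably infected population. The other arm carried a control hairpin (sh-NC) that the labels describe no further. The comparison asks how the enriched regions differ when the ac4C writer NAT10 is depleted. Each arm had 3 immunoprecipitated and 3 input libraries, 12 samples in all, and the deposited processed files were 2 peak lists, 1 for each arm. The name of the control list gives its arm, and the other list was taken as that of the knockdown because it remained. The sources used here do not say how the 3 libraries of an arm were combined, nor name a peak caller or threshold. The labels name the molecule as polyA RNA, while the protocol describes total RNA.

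With 1 list for each arm there was no replicate, so no difference between the arms could be tested. The 95% Wilson intervals below cover counting error only and treat peaks as independent, which neighbouring peaks are not. The lists hold no read counts, so the depth behind a peak is unknown, and the level of NAT10 itself could not be read from them. The score of each peak is the authors' own value on a scale that is not stated, so scores of both lists are printed side by side as a description and no change between the arms is read from them. A score cut applied to both lists assumes a common scale. Of 10 genes listed as markers of bile duct cells, 8 had a peak in the knockdown list and 9 in the control list. EPCAM, an epithelial surface marker, had none in either list, and the knockdown list also had none on TSPAN8. Peaks were also found on 1 of 6 hepatocyte markers in the knockdown list and 2 of 6 in the control list, on 1 of 6 fibroblast markers in each list (COL1A1 in the knockdown list, COL1A2 in the control list), and on 2 of 5 immune markers in both lists.

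ac4C is an acetyl group placed on cytidine, and NAT10 is the RNA acetyltransferase that writes it in human cells. Its best established targets are 18S ribosomal RNA and, with the adaptor THUMPD1, transfer RNAs. Most human pseudogenes are processed copies, made when a messenger RNA was reverse transcribed and put back into the genome. Others are copies of small RNAs such as 7SK, which holds the elongation factor P-TEFb inactive, or 7SL, the RNA of the signal recognition particle, and others again are nuclear copies of mitochondrial DNA or remnants of duplicated genes. Many copies are nearly identical to the active parent gene, and a short read from the parent can be placed on the copy. Every peak below is therefore uncertain as to its source, and the share of reads that truly arose from the pseudogene cannot be told from the lists.

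Sequence could be shown for peaks of 2 pseudogenes, because those peaks lie in a RefSeq promoter window of a neighbouring gene. Both are printed from GRCh38.p14, 5′ to 3′ along the strand of the peak. Capitals mark the motif CNNCNNCNNCNN, a pattern of cytidines spaced by 3 bases that has been described for ac4C sites in human RNA.

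EIF5AP4, chr10:80247508-80247683, minus strand, score 13.89 in the knockdown list and 14.33 in the control list: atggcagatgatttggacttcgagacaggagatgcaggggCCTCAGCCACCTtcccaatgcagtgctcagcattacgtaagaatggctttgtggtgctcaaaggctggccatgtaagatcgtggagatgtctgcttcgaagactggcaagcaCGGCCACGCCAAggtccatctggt

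ZEB2P1, chr4:16360711-16360810, minus strand, score 11.53 in the control list and no peak in the knockdown list: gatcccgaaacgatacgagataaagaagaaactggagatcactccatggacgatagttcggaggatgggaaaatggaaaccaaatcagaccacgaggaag

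EIF5AP4 is a copy of EIF5A, a translation factor, and stands for the shared peaks. Its peak covered 80247469 to 80247683 in the knockdown list and 80247419 to 80247683 in the control list, and 176 of those bases could be read. They held 23.86% C, with 2 matches to the motif on the peak strand and 2 on the other strand. The motif occurred on either strand in 83.41% of 35116 stretches of the same length from RefSeq promoter windows, and on the gene's strand in 62.42%. ZEB2P1 is a copy of ZEB2, a repressor of epithelial genes, and stands for the peaks found in the control list alone. Its peak of 100 bases held 18% C and no match on either strand, and 71.4% of stretches of that length held a match on either strand, 45.94% on the gene's strand. A match describes these letters only.

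Pseudogene-only peaks were fewer in the knockdown list, at 88.86% of the control number (83.13 to 94.98%). The whole knockdown list was 81.62% as long as the control list. Peaks in protein-coding genes only stood at 82.29%, with 21186 knockdown and 25746 control peaks. Peaks in lncRNA genes only stood at 52.53%, with 488 and 929, and peaks in no gene at 53.94%, with 233 and 432. Many of the last 2 kinds were very long, and among narrow peaks of up to 1000 bp the pseudogene-only class held 1403 knockdown and 1576 control peaks, a ratio of 89.02% (82.84 to 95.66%), against 79.45% in protein-coding genes and 81.2% over all narrow peaks. Narrow peaks in lncRNA genes only stood at 112.6% (125 knockdown and 111 control peaks, 87.27 to 145.3%) and those in no gene at 83.33% (85 and 102). The order of the arms turned with the choice of score. At scores of 20 or more there were 228 knockdown and 204 control pseudogene-only peaks, and with the lists cut to equal length, keeping the highest control scores, there were 1635 and 1538.

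A peak was called shared when it overlapped any peak of the other list by 1 bp or more on the same strand. In the knockdown list 936 of 1635 pseudogene-only peaks were shared (57.25%, 54.84 to 59.63%) and 699 were not (42.75%), beside 44.4% not shared over all knockdown peaks. In the control list 956 of 1840 were shared (51.96%, 49.67 to 54.23%) and 884 were not (48.04%), beside 54.5% not shared over all control peaks. The knockdown share lay close to its background, whereas the control peaks on pseudogenes were more often matched than control peaks at large. Among narrow peaks 43.69% of knockdown and 48.92% of control pseudogene-only peaks were not shared, beside backgrounds of 49.0% and 57.1%. Narrow peaks in protein-coding genes only were shared in 49.58% of knockdown and 40.97% of control cases, against 56.31% and 51.08% on pseudogenes. Of the shared peaks, 298 had identical coordinates in both lists. The match was itself a pseudogene-only peak for 926 of the shared knockdown and 933 of the shared control peaks, and for 10 and 23 it was only a peak that also touches another kind of gene.

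**Figure D1:**
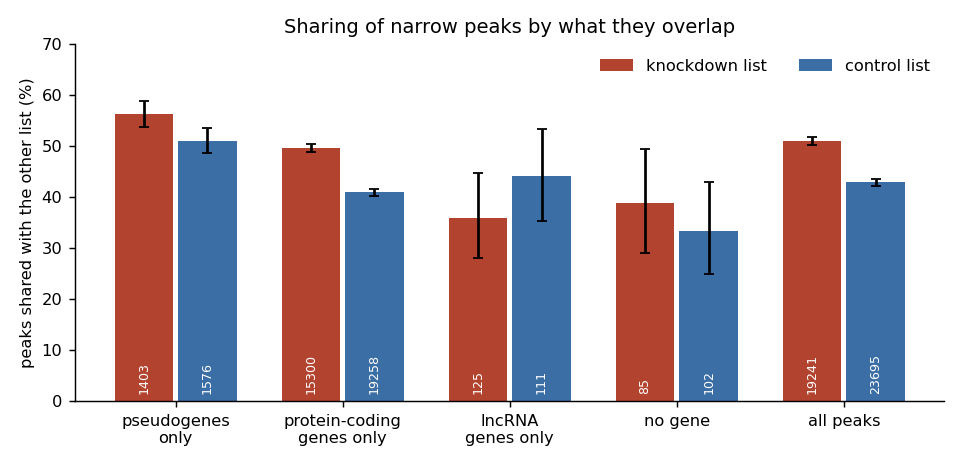
Share of narrow peaks (up to 1000 bp) that overlap a peak of the other list, in percent, by what the peak overlaps; red bars are the knockdown list, blue bars the control list, error bars are 95% Wilson intervals and the number in each bar is the number of peaks. Pseudogene-only peaks stand at 56.31% and 51.08%, above the bars for all narrow peaks at 51% and 42.89%.

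Pseudogene-only peaks were short and mostly of low score. Median width was 125 bp in both lists. The median score was 12.34 (quartiles 10.99 and 15.45) in the knockdown list and 12.17 (11.03 and 14.87) in the control list, close to the medians of 12.37 and 12.17 over all peaks. Few values lay under 10, with 50 knockdown and 63 control peaks, and 26 and 38 of these had a score of 0. An infinite score was listed for 5 knockdown and 4 control peaks. Widths were whole multiples of 25 bp in 79.51% of knockdown and 79.24% of control members, against 54.53% and 58.16% of all peaks.

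Sharing was lowest just above the score of 10. Between 10 and 11, 119 of 363 knockdown peaks (32.78%) and 123 of 383 control peaks (32.11%) were shared, beside 35.82% and 29.43% over all peaks. Between 11 and 12 the shares were 59.38% of 325 knockdown and 51.52% of 429 control peaks, beside 51.56% and 40.84%. Between 15 and 20 they were 68.69% of 214 and 58.68% of 242, beside 64.2% and 55.15%. At 50 or more, 31 of 35 knockdown peaks (88.57%, 74.05 to 95.46%) and 28 of 29 control peaks (96.55%, 82.82 to 99.39%) were shared. Over all peaks of that band the shares were 86.65% and 81.82%. At 20 or more, 26.32% of knockdown and 29.9% of control members were not shared, beside backgrounds of 28.4% and 36.0%. Unshared pseudogene peaks were thus most frequent next to the lower edge, as they were among all peaks scored 10 or more.

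**Figure D2:**
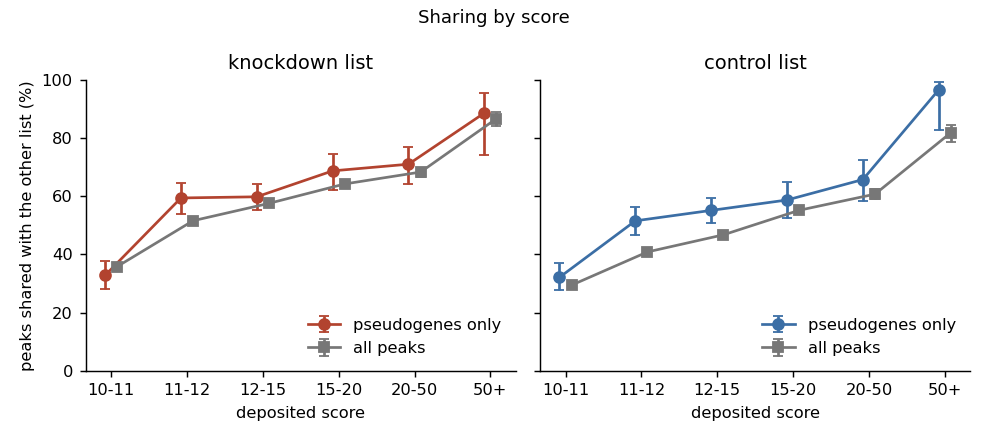
Share of peaks that overlap a peak of the other list, in percent, against the deposited score in bands, for the knockdown list (left) and the control list (right); circles are pseudogene-only peaks, grey squares are all peaks, and bars are 95% Wilson intervals. The pseudogene-only share runs from 32.78% (knockdown) and 32.11% (control) in the lowest band drawn to 88.57% and 96.55% in the highest.

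Width divided the members further. Peaks over 10000 bp numbered 111 in the knockdown list, of which 89 were shared (80.18%), and 162 in the control list, of which 89 were shared (54.94%). Of these long peaks 82 had the same coordinates in both lists. The share over all peaks of this width was not counted. Peaks in lncRNA genes only, mostly over 10000 bp (308 of 488 knockdown and 767 of 929 control peaks), were shared in 61.27% and 32.72% of cases. A higher share in the knockdown list was thus not particular to pseudogenes. The widest covered 308037 bp around LOC100420765, with a score of 0 in both lists. The next were 300485 bp around PRPS1P1, scored 21.27 in the knockdown list and 56.38 in the control list, and 284634 bp around GYG1P2, scored 18.92 and 44.36. A peak of this kind spans far more than the pseudogene it was assigned to.

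Counted as genes, 1668 of 16882 annotated pseudogenes (9.88%) had at least 1 pseudogene-only peak. There were 1147 in the knockdown list and 1322 in the control list, and 801 were in both. The knockdown list alone held 346, or 30.17% of its pseudogenes, beside 20.0% for genes of all kinds with a knockdown peak. The control list alone held 521, or 39.41%, beside 32.5% for genes of all kinds with a control peak. Those backgrounds count any peak on a gene, and counted the same way 25.65% of pseudogenes with a knockdown peak and 36.36% of those with a control peak were in that list alone. With lists of equal length by score, 425 pseudogenes were in the knockdown list alone and 414 in the control list alone, so the order of these numbers turned. Most pseudogenes carried little: 729 had 1 peak over both lists together, and 381 had exactly 1 in each. Pseudogenes marked as transcribed had a peak more often, 247 of 1268 (19.48%) against 1421 of 15614 of the rest (9.101%). Their peaks were shared in 46.72% of 274 knockdown and 47.31% of 279 control cases, against 59.13% of 1314 and 52.5% of 1501 on pseudogenes not so marked. Peaks lay on longer pseudogenes, with a median span of 1294 bp against 727 bp over all those annotated. A rule of 1 bp of overlap favours long spans by construction. The contrast between transcribed pseudogenes and the rest was not separated from span length.

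Copies of ribosomal protein genes were the most numerous messenger RNA family. The large subunit family (RPL) held 107 knockdown and 106 control peaks on 104 of 1300 annotated copies, and 60.75% of the knockdown and 66.04% of the control peaks were shared. The small subunit family (RPS) held 61 peaks in both lists on 66 of 694 copies, with 63.93% and 70.49% shared. Both families thus had nearly equal numbers of peaks in the arms. All pseudogene-only peaks together stood at 88.86%, and whether either family departs from that ratio was not tested. At scores of 20 or more RPL copies held 16 knockdown and 12 control peaks, and RPS copies held 7 and 10. RPL41P1, a copy of the gene for the smallest ribosomal protein, had 1 peak at chr20:21755270-21755344 in both lists with the same edges, scored 80.03 in the knockdown list and 65.94 in the control list. RPL13AP25 was scored 31.72 and 45.88 over identical edges, and RPS2P7 33.98 and 35.59. RPS15AP21, scored 41.26, was present in the knockdown list alone.

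Copies of translation elongation factors (EEF) held 53 knockdown and 49 control peaks on 31 of 75 copies, with 58.49% (45.09 to 70.74%) and 77.55% (64.12 to 86.98%) shared. Most were copies of EEF1A1, the factor that brings aminoacyl-tRNA to the ribosome, with 44 knockdown and 40 control peaks on 24 of 50 copies. Of these, 24 knockdown peaks (54.55%) and 31 control peaks (77.5%) were shared. EEF1A1P5 had the highest score of the family, 97.53 in the knockdown list and 90.39 in the control list, at chr9:133019486-133019610 with the same edges. It carried 1 pseudogene-only peak in the knockdown list and 4 in the control list, but the other 3 control peaks were all matched by knockdown peaks that also touch another gene. The peak with the highest score covered bases 64 to 188 of the 1747 bp span along its strand. On EEF1A1P13, also 1747 bp long, the strongest peak covered bases 61 to 149, scored 40.97 in the knockdown list and 33.76 in the control list. On EEF1A1P6 a control peak scored 27.01 covered bases 73 to 172 of 1746. The knockdown peak there covered bases 73 to 272 and scored 12.27, while the highest knockdown score on that copy, 15.73, lay at bases 1173 to 1297. On EEF1A1P11, of 1748 bp, the strongest peak lay at bases 239 to 363, scored 57.29 and 38.7. These 4 copies were picked with their values known, and over all narrow peaks on EEF1A1 copies the centres ran from 75.5 to 1770 bp in the knockdown list and from 51 to 1482 bp in the control list. Initiation factor copies (EIF) held 28 knockdown and 25 control peaks on 25 of 90 copies, with 15 and 14 shared. EIF3MP1 and EIF4A2P4, copies of an initiation complex subunit and of an RNA helicase, had peaks scored 32.9 and 32.72 in the control list alone.

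**Figure D3:**
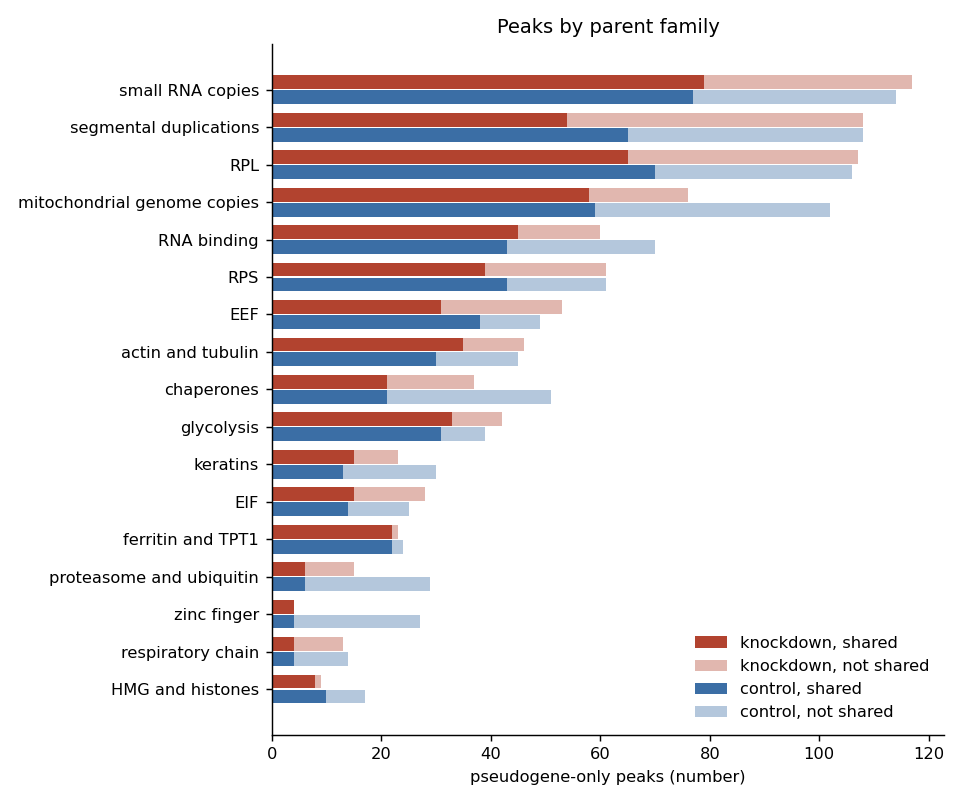
Number of pseudogene-only peaks by family of the parent gene; in each pair the red bar is the knockdown list and the blue bar below it the control list, with the dark part shared with the other list and the pale part not shared. RPL bars are nearly level at 107 and 106, zinc finger copies stand at 4 and 27, and a peak on several families is drawn in each.

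Copies of small noncoding RNAs held 117 knockdown and 114 control peaks on 128 of 3396 annotated copies, and the shared parts were equal at 67.52% and 67.54%. Among narrow peaks the family held 101 knockdown and 86 control peaks. RN7SK copies held 37 knockdown and 36 control peaks on 39 of 293 copies, with 29 shared in both lists. Of these copies 30 were in both lists. In 1 list alone were 5 of 35 with a knockdown peak and 4 of 34 with a control peak, beside 30.17% and 39.41% over all pseudogenes. The median centre of narrow peaks lay 175 bp (quartiles 150 and 202.5 bp) from the start in 33 knockdown peaks. In 30 control peaks it lay at 162.5 bp (133.9 and 210 bp), and median spans were 298 and 302.5 bp. Peaks on RN7SK copies were 150 and 125 bp wide at the median, and a wide peak inside so short a span cannot have its centre near either end. The position was not separated from span length. On RN7SL copies the median centres were 162.5 and 150 bp, on median spans of 296 and 295 bp. RN7SKP104 was scored 19.07 in the knockdown list and 49.6 in the control list over identical edges, and RN7SKP174 was scored 46.14 and 30.97, so the order of the 2 copies differed between the lists. RN7SL copies held 37 knockdown peaks, of which 22 were shared (59.46%), and 23 control peaks, of which 22 were shared (95.65%). They lay on 32 of 684 copies, and no control peak on them scored above 18.15. In 1 list alone were 12 of 31 copies with a knockdown peak and 1 of 20 with a control peak.

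**Figure D4:**
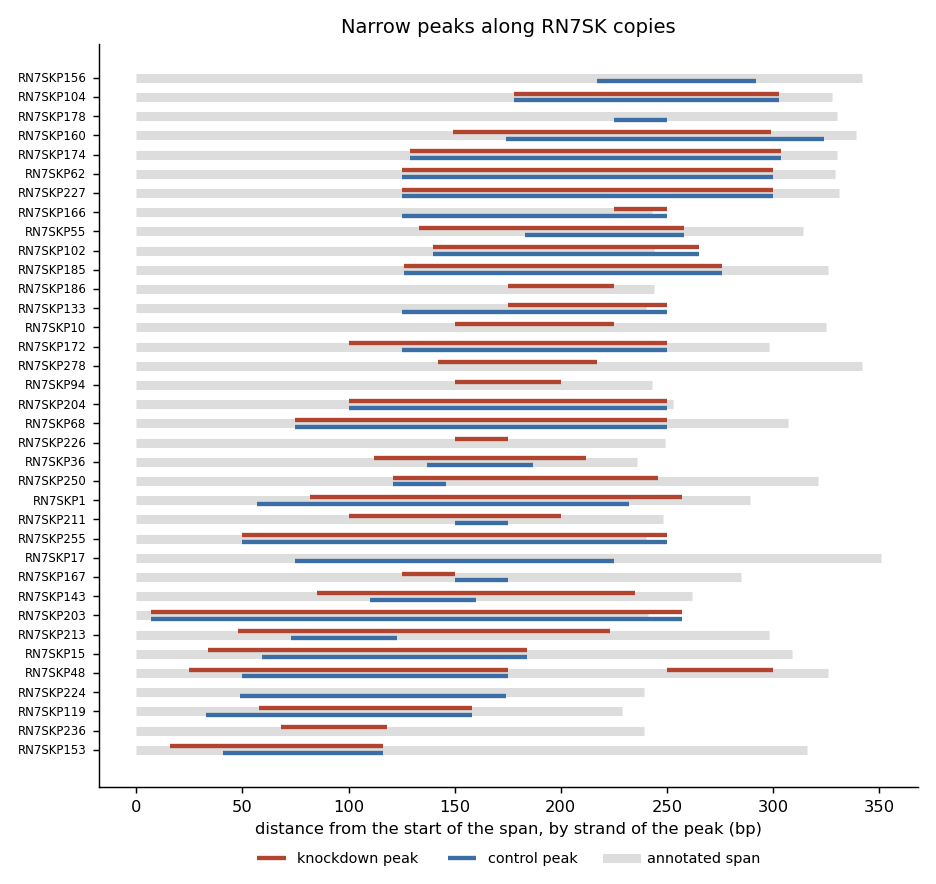
Narrow peaks along each RN7SK copy that has one; the axis is the distance in bp from the start of the annotated span read along the strand of the peak, grey bars are spans, red lines knockdown peaks and blue lines control peaks. Median centres lie at 175 bp (knockdown) and 162.5 bp (control), and this position was not separated from the short length of the spans.

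Copies of ribosomal RNA were few. The 5S copies held 16 knockdown and 13 control peaks, with 11 shared in both lists. Copies of 18S and 5.8S rRNA held 6 knockdown peaks, all 6 shared, and 11 control peaks, of which 4 were shared. 18S rRNA is an established NAT10 substrate. RNA18SP5 carried 3 knockdown peaks, scored 110, 30.7 and 17.06, within the ground covered by a single control peak at chr21:8254592-8255514 scored 14.69. RNA18SP2, on chromosome Y, carried 2 knockdown and 8 control peaks, all 10 scored between 10.57 and 13.78. The copies of U RNAs, which are components of the spliceosome and related particles, held 16 knockdown and 27 control peaks, with 7 shared in both lists. Only 12 of these knockdown and 15 of these control peaks were narrow, and the rest were over 1000 bp wide.

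Nuclear copies of the mitochondrial genome held 76 knockdown and 102 control peaks on 95 of 487 copies. Of the knockdown peaks 76.32% were shared (65.64 to 84.46%), and of the control peaks 57.84% (48.15 to 66.97%). The mitochondrial chromosome itself had 0 peaks in both lists, so no peak on the original genes stood beside those on the copies. Copies in both lists numbered 52. Of 60 copies with a knockdown peak 8 were in that list alone, and of 87 with a control peak 35 were in that list alone. Over all pseudogenes the shares in 1 list alone were 30.17% for the knockdown list and 39.41% for the control list. Copies of cytochrome oxidase genes (MTCO) held 39 knockdown and 43 control peaks, and copies of complex I genes (MTND) held 30 and 40. Cytochrome b copies (MTCYB) held 5 knockdown and 15 control peaks, with 4 shared in both lists, and copies of mitochondrial ribosomal RNA (MTRNR) held none. MTND3P19 was scored 17.66 in the knockdown list, at chr5:100050769-100050918, and 172.3 in the control list, at chr5:100050819-100050918. MTCO1P6 was scored 76.57 in the knockdown list and 46.2 in the control list at chr3:89588964-89589213.

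Copies of the iron store genes and of TPT1, the translationally controlled tumour protein, had the highest sharing of the families with 10 or more peaks in both lists. They held 23 knockdown peaks, of which 22 were shared (95.65%), and 24 control peaks, of which 22 were shared (91.67%), on 17 of 61 copies. All 10 knockdown and all 11 control peaks on copies of FTH1, the ferritin heavy chain, were shared, and so were all 10 and all 9 on copies of FTL, the light chain. FTLP1 was scored 57.99 in the knockdown list and 64.72 in the control list at chr20:45975825-45976074. FTLP19 carried a pair of peaks, scored 43.73 and 55.29 in the knockdown list and 39 and 42.49 in the control list, and FTLP3 was scored 31.99 and 27.02. All these had the same edges in both lists.

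Glycolytic enzyme copies held 42 knockdown and 39 control peaks on 28 of 108 copies, with 78.57% and 79.49% shared. GAPDH copies accounted for 24 in both lists, and GAPDHP35 reached 56.48 in the knockdown list, where the control list had a longer peak scored 12.44 over the same ground. The family named actin and tubulin also took in copies of TMSB, CFL1 and PFN1 genes, which encode actin-binding proteins. It held 46 knockdown and 45 control peaks, with 35 and 30 shared. Within it, copies of ACTG1, cytoplasmic gamma actin, gave 17 and 15. Keratin copies held 23 knockdown and 30 control peaks, with 15 and 13 shared. Copies of KRT18, an epithelial keratin that bile duct cells make, gave 12 knockdown and 21 control peaks with 8 shared in both lists, while copies of KRT19 gave 7 and 2. KRT18P3, scored 19.93, and 3 peaks on KRT18P8, scored 10.09 to 13.57, were in the control list alone.

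Families of RNA-binding and chaperone genes held fewer knockdown than control peaks, as did all pseudogene-only peaks together (88.86%). The RNA-binding ratio of 85.71% lay near that value, and the chaperone ratio was 72.55%. RNA-binding protein copies held 60 knockdown and 70 control peaks, with 75% and 61.43% shared. Within them the copies of NPM1, nucleophosmin, a nucleolar protein, held 2 knockdown and 12 control peaks, of which 1 was shared in both lists, on 10 of 50 copies. The copies of YBX1, a cold shock domain RNA-binding protein, held 10 knockdown peaks, all shared, and 12 control peaks, 11 shared. SETP9, a copy of the histone chaperone gene SET, had the highest score of the narrow peaks found in the knockdown list alone, 85.02 at chr1:160670198-160670372. On SETP4, which overlaps TEX16P, the shared peak was scored 11.8 in the knockdown list and 79.02 in the control list. Chaperone copies held 37 knockdown and 51 control peaks, with 21 shared in both lists. HSPB1P1, a copy of a small heat shock protein gene, was scored 54.9 in the knockdown list and 57.57 in the control list over identical edges, and HSP90B3P was scored 51.63 in the knockdown list, where no control peak overlapped it. Proteasome and ubiquitin copies held 15 knockdown and 29 control peaks, with 6 shared in both lists, and copies of HMG and histone genes held 9 and 17, with 8 and 10 shared.

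Zinc finger copies, remnants of genes for DNA-binding repressors, had the lowest ratio of the families, with 4 knockdown and 27 control peaks. All 4 knockdown peaks were shared, and 4 of the control peaks (14.81%, 5.916 to 32.48%). Many peaks of both lists also lay on a pseudogene outside the family. ZNF252P, which overlaps TMED10P1, held 2 of the knockdown and 5 of the control peaks. The remaining knockdown peaks were 32055 and 26686 bp wide. Pseudogenes of this family in both lists numbered 4, with none in the knockdown list alone. In the control list alone were 11 of 15 with a control peak, beside 39.41% over all pseudogenes. ZNF731P, ZNF271P and ZNF33CP, scored 24, 17.92 and 15.03, were in the control list alone. A run of 6 unshared control peaks lay on ZNF322P1, which overlaps ANKRD18CP, and 1 of these had a score of 1.115, while the others lay between 10.3 and 12.04.

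Sub-groups with uneven numbers were also seen among other named copies, and these were picked after their values were known. KPNA2 encodes an importin that carries proteins into the nucleus, and its copies held 10 knockdown peaks, 2 of them shared, and 2 control peaks, both shared. KPNA2P1 carried 5 knockdown peaks and 1 control peak, and KPNA2P2 carried 4 and 0. THAP12 copies held 0 knockdown and 9 control peaks on 4 of 10 copies, scored 10.14 to 14.65. Single pseudogenes with large differences included AP2B1P1 and GTF2IP1, both with 7 knockdown peaks and 1 control peak, and LOC643168, with 0 knockdown and 7 control peaks. GTF2IP1 held 6 knockdown peaks between 10.63 and 11.4 and 1 of 67.87 that was 1041 bp wide and not shared. Over all pseudogenes 500 had more knockdown than control peaks, 684 had fewer and 484 had as many. A margin of 3 or more peaks was seen on 22 pseudogenes with more knockdown peaks and on 39 with fewer.

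Pseudogenes with symbols listed under segmental duplications held 108 peaks in both lists, with 50% of the knockdown and 60.19% of the control peaks shared. This group was set by the start of the symbol alone, and whether each member lies in a duplication was not checked. SMG1P1, a transcribed relative of the kinase gene SMG1, had the most peaks of any pseudogene, 11 in both lists. Relatives of PKD1, the polycystin 1 gene, held 14 knockdown and 23 control peaks, with 12 and 16 shared, on the same 7 pseudogenes in both lists. PKD1P3 carried 1 knockdown and 7 control peaks, all shared, PKD1P5 carried 4 and 8, and PKD1P4 carried 7 and 5. The control peaks of PKD1P3 included 1 of 1520 bp and 6 of 489 bp or less, scored 10.61 to 15.69. Of the 7 control peaks, 1 was matched by the pseudogene-only knockdown peak and 6 only by knockdown peaks that also touch a gene of another kind. How many knockdown peaks made those 6 matches was not counted, so the uneven number cannot be told apart from the rule for members.

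Most copies belonged to no listed family. Other named pseudogenes held 671 knockdown and 764 control peaks on 686 of 5595 copies, with 49.03% and 42.8% shared, and unnamed loci held 184 and 224, with 57.61% and 50.89% shared. At scores of 20 or more the other named pseudogenes held 108 knockdown and 88 control peaks. PHB2P1, a copy of the mitochondrial prohibitin gene PHB2, was scored 85.12 in the knockdown list and 50.39 in the control list at chr10:109528794-109529008, with the same edges. Present in the knockdown list alone were peaks on TLK1P1 (75.5), FNTAP1 (44.96) and FARSBP1 (43.56). Present in the control list alone were peaks on CALM1P1 (58.85) and CALM1P2 (38.75), copies of a calmodulin gene, and on TNPO1P2 (42.87), SEPTIN7P2 (39.63) and DDX18P3 (39.13). TLK1P1, CALM1P1, CALM1P2 and SEPTIN7P2 carried a peak elsewhere on their spans in the other list.

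The symbol named a parent gene of another biotype for 1110 of the 1668 pseudogenes, and 558 had none by this rule. The parent had a peak in both lists for 874 of them (78.74%) and in neither for 96 (8.649%). Among 530 pseudogenes in both lists the parent was in both for 476 (89.81%), against 177 of 238 in the knockdown list alone (74.37%) and 221 of 342 in the control list alone (64.62%). The parent had no peak in either list for 18 (3.396%), 25 (10.5%) and 53 (15.5%) of the same 3 sets. Parents of EEF1A1P5, RPL41P1, FTLP1 and HSPB1P1 all had peaks in both lists, while THAP12, the parent of THAP12P3, and FNTA, the parent of FNTAP1, had none. PSMC6 and DDX18 had a peak in the knockdown list alone, although PSMC6P2 and DDX18P3 had theirs in the control list alone. Over the 2272 genes that are a parent of any annotated pseudogene, 1389 had a knockdown peak and 1355 a control peak, and 1140 had both. This last count takes each parent once. The shares above count pseudogenes, so a parent with many copies, such as EEF1A1, enters them many times.

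Along the span, peaks on pseudogenes did not gather at the end as peaks on protein-coding genes did. For narrow peaks wholly inside a single gene and read along the strand of the peak, the median centre lay at 46.3% of the span for 1311 knockdown and 45.94% for 1469 control peaks on pseudogenes. In protein-coding genes the median lay at 69.32% for 14593 knockdown and 74.93% for 18318 control peaks. The final 10% of the span held 5.111% of knockdown and 5.174% of control peaks on pseudogenes, against 22.51% and 30.53% in protein-coding genes. A peak wholly inside a short span cannot have its centre near either end, and the contrast was not separated from span length. The strand of the pseudogene was not given in the annotation used, and 105 pseudogenes had peaks on both strands.

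**Figure D5:**
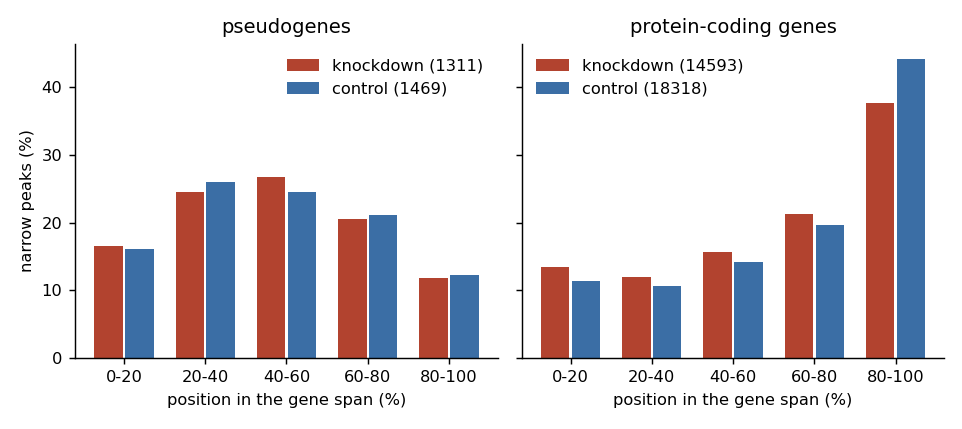
Share of narrow peaks, in percent, by position of the centre of the peak in the gene span, in steps of 20%, read along the strand of the peak, for pseudogenes (left) and protein-coding genes (right); red bars are the knockdown list, blue bars the control list, and numbers of peaks stand in the legend. The final 20% of the span holds 11.75% of knockdown and 12.19% of control peaks on pseudogenes, against 37.66% and 44.21% in protein-coding genes.

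Pseudogene-only peaks were spread over the genome, and over the autosomes and chromosome X the number in the knockdown list lay between 72.41% (chromosome 14) and 123.1% (chromosome 8) of those in the control list. Members outside this range of chromosomes included peaks on chromosome Y, among them those on RNA18SP2 and on PRKY with RN7SKP282. Strands were level, with 839 knockdown peaks on the plus and 796 on the minus strand, and 927 and 913 in the control list. Of the members, 1522 knockdown and 1705 control peaks overlapped a single pseudogene, and 51 knockdown and 70 control peaks overlapped pseudogenes of several families and were counted in each.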

How the data were processed

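acRIP-seq libraries of RBE cells (4 groups, 3 replicates each) were represented by 2 deposited peak lists. The tools fastp 0.20.1 and Bowtie2 2.4.1 and the build hg38 are named, per the submitters' processing notes, without role or order. The score in column 5 of both deposited lists is the authors' value, while its scale, the caller and the use of inputs are not stated there. Reads that fit several copies can be placed on any of them. Read depth per sample is unknown.

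Peaks were set against RefSeq gene spans of GRCh38.p14 with bedtools 2.31.1 and pandas 2.3.3 (Python 3.11.15), with 1 bp as the smallest overlap, and members were grouped into 20 families by symbol. Intervals are Wilson at 95%. No test was run, since each arm has 1 list. Ratios are knockdown over control. As a check of the code, 1000 of 1000 peaks placed in gene spans received the same class by direct comparison. All 34365 control peaks were found as shared with their own copies moved by 10 bp, an outcome that their widths fixed in advance.

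Pseudogenes were named by rule: the 8 with most peaks, the 6 highest finite scores among narrow peaks in the knockdown list alone, in the control list alone and in both, up to 3 for each family with 5 or more peaks, and the 3 widest peaks. Sub-groups of single parents, the 2 sequence examples, pseudogenes singled out for a difference in number and others named beyond this rule were picked with their values known. The members and family lists were chosen with earlier results of these data known. Alternatives were stricter overlap, width, score and list length, merging, and leaving out unnamed loci or copies of small RNAs and the mitochondrial genome.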

Additional observations from a re-analysis of the deposited data

How the results depend on the processing

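No paired analysis was possible because each arm is represented by 1 peak list without replicate columns. At scores of 20 or more, 228 knockdown and 204 control peaks were left, a ratio of 111.8%, with 73.68% and 70.1% shared, 101 pseudogenes in both lists, 140 in the knockdown list alone and 123 in the control list alone, and other named copies held 20 more knockdown than control peaks. With lists of equal length by score the ratio was 106.3%, with 51.56% of knockdown and 55.2% of control peaks shared, and 722 pseudogenes in both lists, 425 in the knockdown list alone and 414 in the control list alone. An overlap of 50% of both peaks gave 42.57% and 37.93% shared. Counting any peak on a pseudogene, also one that overlaps other genes, gave 2139 pseudogenes in both lists, 738 in the knockdown list alone and 1222 in the control list alone. These settings change by construction which peaks are counted, and no other cause was tested. The other settings moved the ratio to between 88.79 and 90% and the shares by less than their intervals. The last of them, which left out unnamed loci or copies of small RNAs and the mitochondrial genome, were chosen after seeing the data. Without replicates or depth, no difference between the arms can be set against its error.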
